A study of Mus musculus with 6 samples.

Results

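The cytosolic ribosomal protein genes encode the proteins of the large and small subunits of the ribosome that reads nuclear mRNA. They were chosen by name: every gene with a single symbol in the array annotation that starts with Rpl or Rps and a digit, and *Rplp0*, *Rplp1*, *Rplp2* and *Rpsa*, without the Rps6k kinases and the symbols of pseudogenes ending in -ps. The rule used no measured value and found 63 of the 19938 genes measured. Of these, 33 encode large subunit proteins and 21 small subunit proteins, and 9 are paralogs, retrogenes or others that carry a similar name. RefSeq lists 89 protein-coding symbols under the rule, of which 62 are among the 63. The other 27, *Rpl11*, *Rpl13a* and *Rps27a* among them, are not analysed here as single genes, and 20 symbols under the rule stand only in probe sets that the annotation gives several names. Ribosomal protein genes have many near-identical processed copies in the genome, so every probe set below may also hold signal from other copies.

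Liver RNA came from 3 Lkb1KOlivad and 3 control mice, all female and of the FVB/N background, with 1 array per mouse. The Lkb1KOlivad mice (B253, B304 and B305) carried floxed Lkb1 alleles and TTR-CreTam, a tamoxifen-inducible Cre under the transthyretin promoter, which drives it in hepatocytes. The controls (B256, B267 and B302) were Lkb1fl/fl littermates without Cre, so both groups carried the floxed alleles. According to the methods, mice received 2 injections of 1.5 mg tamoxifen at 8 to 12 weeks of age and were mostly studied 15 days later. The paper describes the microarray livers as those of fasted mice, and its methods state an 18 h fast in most cases. The array labels do not repeat the fast. *Stk11*, the gene of Lkb1, lay between 6.42 and 6.52 in Lkb1KOlivad livers and between 7.96 and 8.24 in control livers on the log2 scale (log2 fold change -1.64, limma adjusted p = 0.00705). All values are log2 RMA signals, on which a difference of 1 is a doubling. Signals of different probe sets are not comparable as amounts of RNA, and an array of whole liver cannot tell fewer cells of a type from less RNA per cell. Each limma p-value sets the difference between the groups against the spread between mice, a spread that limma steadies with the variances of all genes. The exact p-value is the share of regroupings of the 6 mice that give a difference at least as large.

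Cells make ribosomal proteins in nearly equal numbers and keep their mRNAs among the most abundant of the liver. The mRNAs share a short pyrimidine run that starts with a C at the cap, the 5′ terminal oligopyrimidine (TOP) motif, through which mTORC1 and the binding protein Larp1 set their translation. Lkb1 activates the kinase AMPK, which restrains mTORC1, and Myc is a known activator of ribosome production. Arrays of total RNA measure how much of an mRNA is present and not how much of it is translated.

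The starts of a few of the genes are printed here because the TOP run is what the family has in common at the RNA level. They were picked to show genes with and without a run, beside genes whose values are described further on. Each line holds the strand of the gene from 10 bases before the first transcribed base that RefSeq annotates to 20 bases from it (build GRCm38.p6), with the run of C and at least 4 further pyrimidines in capitals.
*Rps6* (chr4:86857348-86857377, minus strand): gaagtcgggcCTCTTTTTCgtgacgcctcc
*Rps10* (chr17:27635225-27635254, minus strand): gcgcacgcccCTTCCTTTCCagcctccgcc
*Rpl28* (chr7:4792955-4792984, plus strand): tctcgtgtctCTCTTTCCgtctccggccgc
*Rpl38* (chr11:114668570-114668599, plus strand): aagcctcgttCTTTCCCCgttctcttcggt
*Rpl34* (chr3:130730379-130730408, minus strand): tccctgacgtaCTTCCTgtccggcgccgtc
*Rplp0* (chr5:115559457-115559486, plus strand): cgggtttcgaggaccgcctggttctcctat
*Rps3a1* (chr3:86142649-86142678, minus strand): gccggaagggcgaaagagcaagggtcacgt
In the first 4 the run is marked from the annotated start, and the printed strand has further pyrimidines directly before it. In *Rpl34* the run lies 1 base inside the annotated start. No such run begins within 5 bases of the start in *Rplp0* and *Rps3a1*, whose annotated starts may not be the most used ones.

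Of the 63 genes, 51 matched the RefSeq promoter table, with 60 annotated starts. A C with 4 or more pyrimidines stood at the first base of 10 of the 60 starts (16.7%). Of all 32851 starts, 823 had it (2.51%), as did 0 of 75 starts of mitochondrial ribosomal protein genes. Among 20 starts of other TOP mRNA genes, 5 had it, a higher share than in the family. A C with 4 or more pyrimidines after it stood within 5 bases of the annotated start at 35.0% of the starts of the family. It did so at 22.7% of the mitochondrial, at 8 of 20 starts of other TOP mRNA genes and at 18.3% of all starts. This count also takes a C inside a longer pyrimidine stretch that begins further upstream, so it is wider than the marking of the printed starts. TATAAA or TATATA, letters of a TATA box that share their first 4 bases, stood 40 to 20 bases before 2 of the 60 starts (3.33%, all starts 2.62%). In the 300 bases around the start, CCGGAAGT, letters of an ETS factor site, was present on either strand at 13.3% of the family's starts, at 16.0% of those of mitochondrial ribosomal protein genes, at 4 of 20 starts of other TOP mRNA genes and at 3.89% of all. AANATGGC, letters of a YY1 site, was present at 18.3% of the family's starts, at 28.0% of the mitochondrial, at 5 of 20 of the other TOP and at 6.05% of all, so both related lists held each motif at a higher share than the family. The letters of the last pair of motifs do not overlap, and a match here is a match of letters only.

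No ribosomal protein gene passed the test between Lkb1KOlivad and control livers. At an adjusted p under 0.05, 0 of the 63 were called, where 1 gene of all 19938 was (0.00502%), and the adjusted p was 0.9997 for each of them after rounding. At an unadjusted p under 0.05, 1 of the 63 passed (1.59%, all genes 3.03%): 0 were higher, where 1.52% of all genes were, and 1 was lower (*Rps3a1*), where 1.51% were. The groups did not overlap for 1 of the 63 (1.59%, all genes 7.16%). All 3 mutants stood above all 3 controls for 0 genes (3.46% of all genes) and below them for 1 (*Rpl39l*, 3.7% of all genes). The methods' t-test gave 0 at both thresholds. The median log2 fold change of the family was -0.0070, with quartiles of -0.05 and 0.04. Over all genes it was 0.0049, with quartiles of -0.09 and 0.09.

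An adjusted p above the threshold does not show that levels were equal, so the intervals are given here. The median 95% interval in the family was 0.31 wide on each side of the log2 fold change, with a range of 0.24 to 0.75. It lay within 1.5-fold either way for 52 of the 63 genes and within 2-fold for 62, while it lay within 1.2-fold for 3. Of the point estimates, 51 were smaller than 0.1 in size (81.0%), where 54.4% of all genes were. The 33 large subunit genes had a median log2 fold change of 0.0055, 17 of them above 0 and 16 below. The 21 small subunit genes had a median of -0.03, with 5 above 0 and 16 below. In the small subunit, 20 of the 21 intervals lay within 1.5-fold, and the exception was *Rps3a1*.

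**Figure D1:**
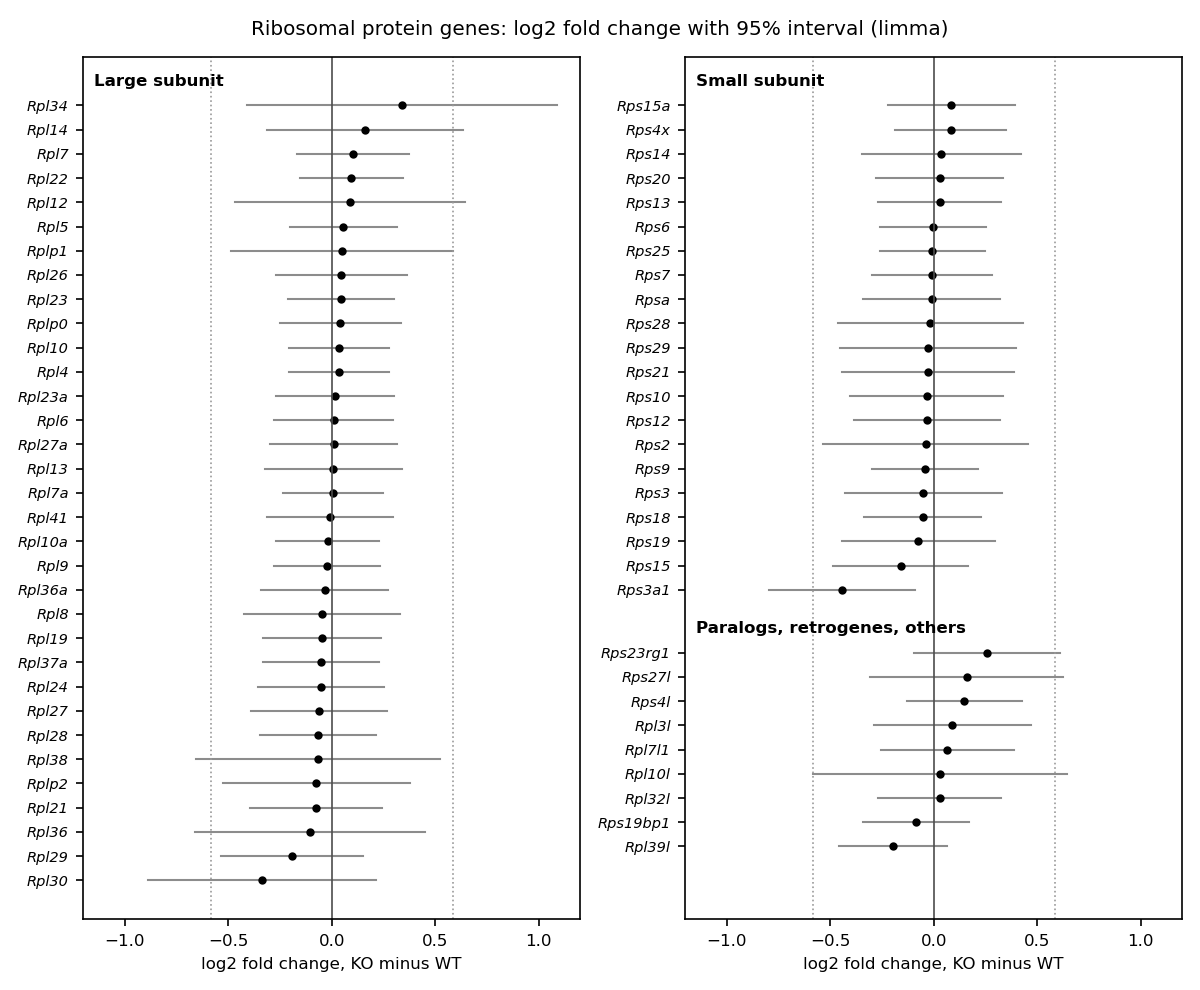
Log2 fold change (x axis, Lkb1KOlivad, KO, minus control, WT) of each of the 63 genes with its 95% interval from limma; dotted lines mark 1.5-fold. One interval excludes 0, that of *Rps3a1*, and *Rpl34* has the widest.

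*Rps3a1* (probe set 10407120) encodes a small subunit protein that sits near the exit of the mRNA channel. Its log2 signal was 10.24 in B253, 10.20 in B304 and 10.66 in B305 of the Lkb1KOlivad livers, against 10.95 in B256, 10.81 in B267 and 10.66 in B302 of the control livers. B305 and B302 were level within rounding, and the groups met there without separating. The log2 fold change was -0.44 (SE 0.15, 95% interval -0.80 to -0.09, limma unadjusted p = 0.020, adjusted p = 0.9997), and the exact two-sided permutation test of the same 6 values gave p = 0.20, where 0.10 is the smallest it can give. The unadjusted p passed 0.05 in the fit of all 6 mice and not without B253, B304 or B256 (log2 fold change -0.38, -0.36 and -0.37). It did not pass either once probe sets with several names were admitted, an alternative added after the data were seen, because the gene was then represented by another, brighter probe set.

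The next largest fold changes depended on single mice. *Rpl30*, a large subunit protein gene, had signals of 5.43 in B253, 6.41 in B304 and 6.38 in B305 of the Lkb1KOlivad livers, and of 6.43, 6.35 and 6.43 in B256, B267 and B302 of the control livers. B253 alone was low, and the other mice lay between 6.35 and 6.43. The log2 fold change was -0.33 (SE 0.24, adjusted p = 0.9997 from limma) with B253 and -0.01 without it. *Rpl34*, also of the large subunit, had 5.67, 5.49 and 4.95 in B253, B304 and B305 of the Lkb1KOlivad livers, and 4.66, 4.59 and 5.84 in B256, B267 and B302 of the control livers. The controls spanned the mutants, and the log2 fold change of 0.34 (SE 0.33, 95% interval -0.41 to 1.09) became 0.74 without B302. Its mean signal lay under the median of all genes (5.26), so it drops out where dim genes are left out.

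**Figure D2:**
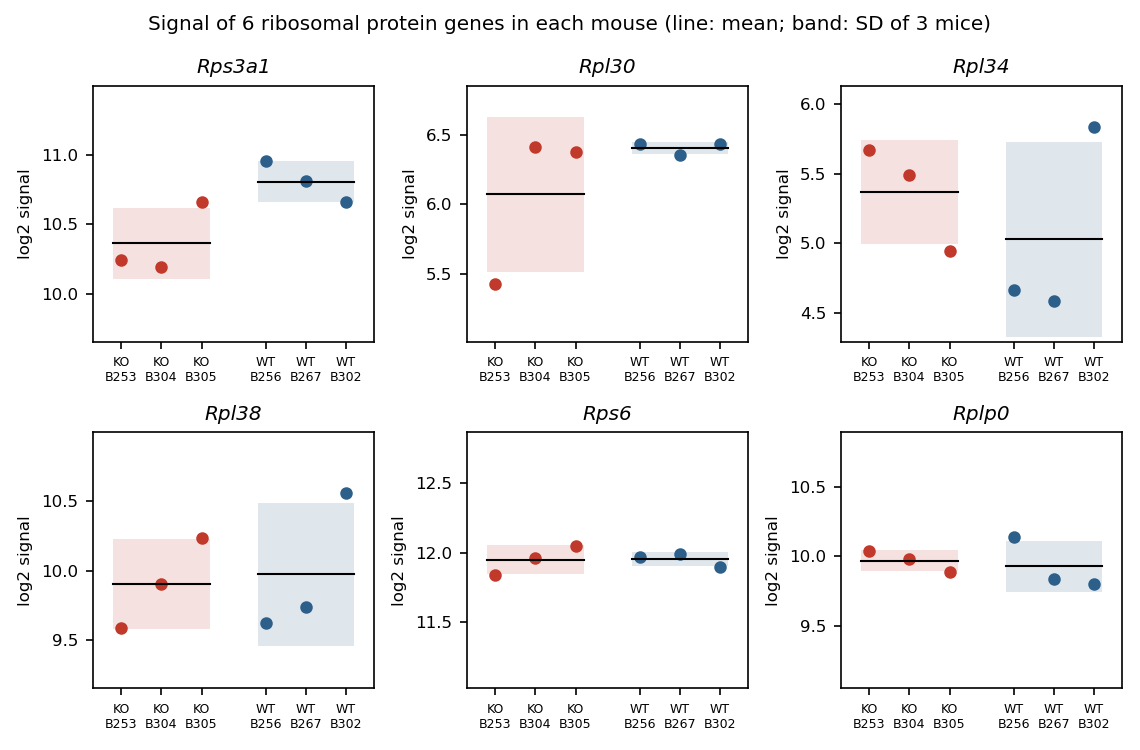
Log2 signal (y axis, a span of equal height in each panel) of 6 genes in each Lkb1KOlivad (KO, red) and control (WT, blue) mouse, with the mean as a line and the SD of 3 mice as a band. *Rps6* and *Rplp0* stay within a narrow span, *Rpl30* is low in KO B253 alone, and *Rpl34* and *Rpl38* are high in WT B302.

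The remaining genes of the large subunit with the largest fold changes also overlapped. *Rpl29*, which encodes a heparin-binding ribosomal protein, had 8.57, 8.25 and 8.63 in Lkb1KOlivad livers and 8.46, 8.70 and 8.84 in control livers (log2 fold change -0.19, SE 0.15). *Rpl14* had 7.18, 6.83 and 6.78 in Lkb1KOlivad livers and 7.24, 6.58 and 6.49 in control livers (0.16, SE 0.21). *Rpl7* had 10.14 to 10.19 in the mutants and 9.89 to 10.17 in the controls (0.10, SE 0.12). The groups overlapped in each of these. *Rpl36* had a log2 fold change of -0.10, *Rpl21* of -0.08, *Rpl22* of 0.09 and *Rpl12* of 0.09, also with overlap, and *Rpl10* (0.04), *Rpl4* (0.04) and *Rpl23a* (0.02), among the genes of highest signal, lay close to 0. In the small subunit, *Rps15*, whose protein lies by the decoding centre, had 10.87, 10.88 and 11.12 in Lkb1KOlivad livers and 11.01, 10.98 and 11.37 in control livers (-0.16, SE 0.14).

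*Rps6* encodes the protein that the S6 kinases phosphorylate downstream of mTORC1, and its phosphorylation is a common readout of that pathway. Its mRNA signal was 11.84, 11.96 and 12.05 in Lkb1KOlivad livers and 11.97, 11.99 and 11.90 in control livers. The groups lay over each other, with a log2 fold change of -0.0030 (SE 0.11), a ratio with a 95% interval of 0.84 to 1.19. The genes of the stalk, the lateral arm of the large subunit that binds translation factors, had log2 fold changes of 0.04 (*Rplp0*), 0.05 (*Rplp1*) and -0.07 (*Rplp2*). *Rplp0*, often used as a reference gene in PCR, had 10.04, 9.98 and 9.89 in Lkb1KOlivad livers and 10.14, 9.84 and 9.80 in control livers, with a 95% interval of the ratio of 0.84 to 1.26. *Rplp1* and *Rplp2* varied more between mice, with SEs of 0.24 and 0.20.

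Several members have known roles beside the ribosome or in disease. *Rpl5*, whose protein binds Mdm2 and so stabilises p53 when ribosome assembly fails, had 10.97, 11.06 and 11.08 in Lkb1KOlivad livers and 11.07, 11.01 and 10.86 in control livers (log2 fold change 0.06, SE 0.11). *Rpl26*, also linked to p53, had a log2 fold change of 0.05 (SE 0.14). *Rps19* and *Rps14*, whose human counterparts are mutated or lost in Diamond-Blackfan anaemia and in a myelodysplastic syndrome, had log2 fold changes of -0.07 (SE 0.16) and 0.04 (SE 0.17). *Rpsa*, the laminin receptor precursor, had -0.01 (SE 0.14). The 3 genes of the response to ribosomal stress analysed here had 0 calls. *Ascc3* had 0.09 (SE 0.12), and *Mdm2* lay between 6.82 and 7.40 in Lkb1KOlivad livers and between 6.75 and 7.15 in control livers (0.29, SE 0.18, adjusted p = 0.9997).

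The 9 paralogs, retrogenes and others had a median log2 fold change of 0.07, and 0 of them were called. *Rpl39l*, the testis-expressed copy of *Rpl39*, was the single gene of the 63 whose groups did not overlap. Its signal was 2.92, 2.84 and 2.94 in Lkb1KOlivad livers and 2.96, 3.19 and 3.15 in control livers (log2 fold change -0.20, SE 0.11, limma adjusted p = 0.9997, exact p = 0.10). It lay under the median signal of all genes, and it dropped out where genes under that median were left out. *Rps27l*, a paralog of *Rps27* and in people a target of p53, had 8.98, 8.77 and 8.79 in Lkb1KOlivad livers and 8.31, 8.60 and 9.17 in control livers (0.16, SE 0.21). Its controls spanned the mutants. *Rps23rg1*, a retrogene of *Rps23*, had 4.92, 5.42 and 5.35 in Lkb1KOlivad livers and 4.85, 4.96 and 5.11 in control livers (0.26, SE 0.16), also under the median signal of all genes. *Rpl7l1*, a paralog of *Rpl7* that acts in large subunit assembly, had a log2 fold change of 0.07 and *Rps4l*, a transcribed pseudogene in RefSeq, of 0.15. *Rpl10l* (0.03) and *Rpl3l* (0.09), known from testis and striated muscle, lay under the median signal of all genes, and *Rps19bp1*, whose protein binds Rps19 without being part of the ribosome, had -0.08. *Rpl32l* had 0.03. Of the subunit genes with a paralog in the annotation, *Rps4x* had 0.08 and *Rpl36a* had -0.03.

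The family's median varied more between mice than between the groups. With each gene set against its own mean over the 6 mice, the family's median was -0.07 in B253, -0.0027 in B304 and 0.07 in B305 of the Lkb1KOlivad mice, and -0.03 in B256, -0.09 in B267 and 0.08 in B302 of the control mice. Over all genes the same medians lay between -0.02 and 0.02. Mutant B305 held the highest of the 6 values for 18 of the 63 genes (28.6%), where it did for 11.8% of all genes. Control B302 held the highest for 26 (41.3%, all genes 21.7%) and the lowest for 10 (15.9%, all genes 20.7%). The lowest value fell to mutant B253 for 19 genes (30.2%, all genes 16.8%) and to control B267 for 22 (34.9%, all genes 18.5%).

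B302 did not shift the family as a block. Against the mean of the other controls, *Rpl34*, a dim gene, was higher in B302 by 1.21 on the log2 scale, the most in the family. *Rpl38* was higher by 0.88, *Rpl36* by 0.88, *Rplp1* by 0.83, *Rps27l* by 0.71, *Rps21* by 0.66, *Rps28* by 0.62, *Rps29* by 0.59, and *Rps14* by 0.52. By the same measure *Rpl12* gave -0.51, *Rps2* -0.43, *Rpl14* -0.42 and *Rpl7* -0.26. These genes were picked after their values were seen. *Rpl38*, whose loss in mice alters the translation of Hox mRNAs, is an example among the brighter genes. It had 9.59, 9.90 and 10.23 in Lkb1KOlivad livers and 9.62, 9.74 and 10.56 in control livers. Among the 21 small subunit genes 11 were highest in B302 (52.4%, all genes 21.7%). The median of the 21 there was 0.24 above the other controls, against 0.09 for the large subunit.

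The mouse numbers fall into a two-hundreds and a three-hundreds series that each hold both groups, and the first has a single mutant (B253) while the second has a single control (B302). Within the two-hundreds the family's median log2 fold change was -0.02, and within the three-hundreds it was -0.06. For the small subunit it was 0.0012 and -0.12. Its median of -0.03 with all mice was 0.02 without mutant B253, 0.08 without control B302 and 0.04 with array weights, so its sign was not stable. Markers of liver and other cells varied in the same mice. The mean signal of 10 hepatocyte markers, all above the median of all genes, lay between 11.78 and 11.92 in Lkb1KOlivad livers and between 11.65 and 12.03 in control livers, with the lowest in B302. The mean of 7 Kupffer cell markers lay between 7.06 and 7.45 in Lkb1KOlivad livers and between 6.90 and 7.69 in control livers, again lowest in B302. The 4 muscle markers (5.15 to 5.28 in Lkb1KOlivad livers, 5.10 to 5.38 in control livers) and the 3 pancreas markers (4.86 to 5.01 and 4.85 to 5.15) were highest in B302. The mean of 8 stellate cell markers did not overlap between the groups. It lay between 6.05 and 6.24 in Lkb1KOlivad livers and between 6.28 and 6.45 in control livers. All 8 fold changes were below 0. Of the 8 markers, 2 had an unadjusted p under 0.05 in limma, where 3.03% of all genes did, and 0 were called. The mean of 7 sinusoidal endothelial markers lay between 6.75 and 6.81 in Lkb1KOlivad livers and between 6.80 and 7.21 in control livers, with 6 of 7 below 0. Among the 7 Kupffer cell markers 6 were also below 0. Of 8 lymphocyte markers, 1 had all mutants above all controls and 3 had them below (50.0%, all genes 7.16%). Only 1 of those 8 lay above the median signal of all genes. The part of these cells in the values of the family was not tested.

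**Figure D3:**
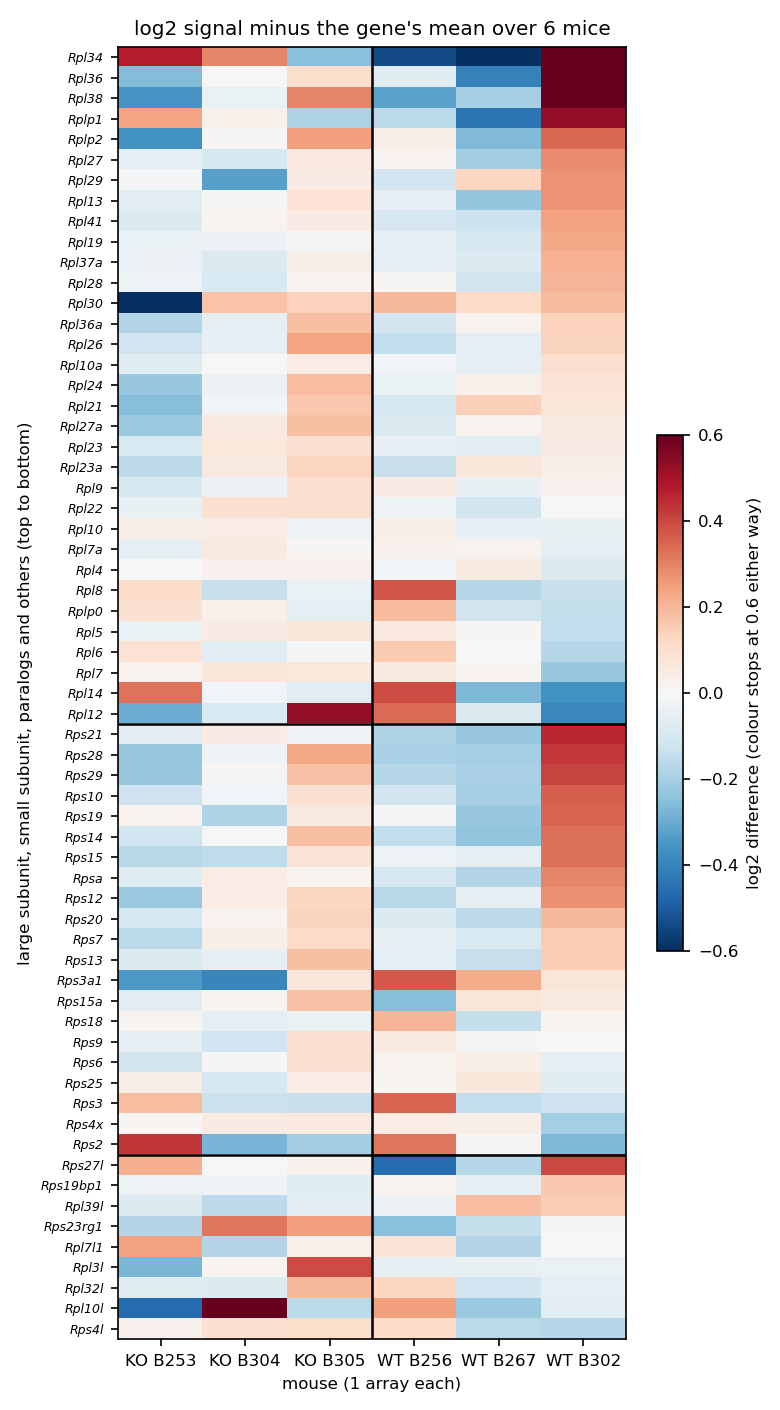
Log2 signal of each of the 63 genes (rows, ordered within each class by B302) minus its mean over the 6 mice, with the Lkb1KOlivad (KO) mice left of the line and the control (WT) mice right of it. WT B302 is highest for 26 genes and lowest for 10, and both groups hold mice on either side of 0.

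Of the 63 genes, 39 had more than 1 probe set of their own, 195 in all and up to 14 for 1 gene. Probe sets of 1 gene are measured in the same 6 mice and can share sequence, so they are not replicates. Their log2 fold changes spanned a median of 0.05 within a gene and at most 0.15, in *Rpsa*, whose brightest set gave -0.01 and whose others all lay above 0. In 27 of the 39 genes all sets had the same sign. Over all 219 probe sets the log2 fold changes ran from -0.44 to 0.34 with a median of -0.02, and 1 of the 219 intervals excluded 0, the set of *Rps3a1*. *Rps3a1*, *Rpl30* and *Rpl34* each had 1 probe set with a single name, so their fold changes could not be compared with another set of that kind.

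**Figure D4:**
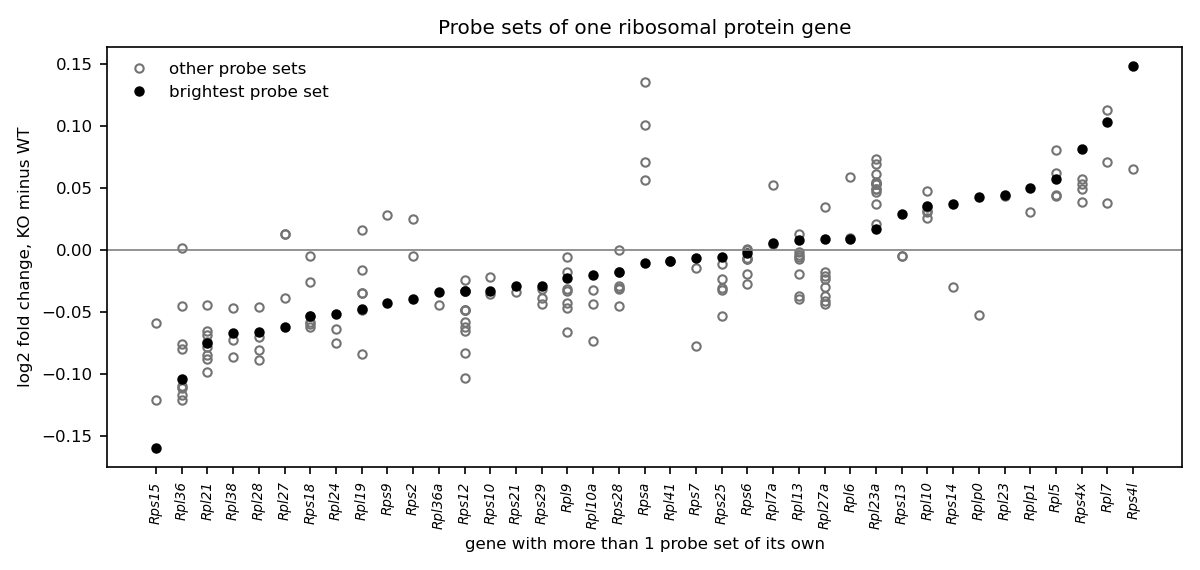
Log2 fold change (y axis, Lkb1KOlivad minus control) of every probe set of the 39 genes with more than 1; the filled point is the brightest set, the one used. All 195 points lie between -0.16 and 0.15, and *Rpsa* spans most.

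Among the 43 subunit genes with an annotated start, the 9 with the pyrimidine run at the first base had a median log2 fold change of -0.03 (range -0.07 to 0.16) and the other 34 of -0.0083 (range -0.44 to 0.34). Genes outside the family whose mRNAs are also of the TOP kind, mainly translation factors, had a median of 0.04 over 19 genes, and 0 of them passed the unadjusted threshold. The 19 include *Fau* (log2 fold change 0.08, SE 0.13), a ribosomal protein gene whose symbol the naming rule does not take. *Eef1a1*, the elongation factor that brings tRNA to the ribosome, had 12.84, 12.54 and 12.50 in Lkb1KOlivad livers and 12.85, 12.51 and 12.36 in control livers (log2 fold change 0.06, SE 0.16). *Eef1d* had 0.21 (SE 0.13), *Gas5*, a TOP RNA that codes for no protein, 0.18 (SE 0.19), *Eef2* 0.01 (SE 0.11) and *Npm1*, a nucleolar chaperone, -0.12 (SE 0.13). *Npm1* is also on the list of ribosome assembly genes described next.

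The 77 mitochondrial ribosomal protein genes, whose products form the separate ribosome of mitochondria, had a median log2 fold change of 0.0076. At the unadjusted threshold, 1.30% of them passed (all genes 3.03%), with 0 higher and 1 lower (*Mrps25*, -0.60, SE 0.23, limma adjusted p = 0.9997), and *Mrps6* came next (0.25, SE 0.12). The 79 genes of ribosome assembly had a median of 0.04, with 1 higher (*Wdr12*, 0.67, SE 0.23, adjusted p = 0.9997) and 0 lower (1.27%, again under the share of all genes), and *Nop58* had 0.36 (SE 0.19). Point estimates under 0.1 in size made up 78.9% of the 19 other TOP mRNA genes, near the 81.0% of the family. They made up 57.1% of the mitochondrial, 55.7% of the assembly and 54.4% of all genes. After adjustment 0 genes of either list were called.

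**Figure D5:**
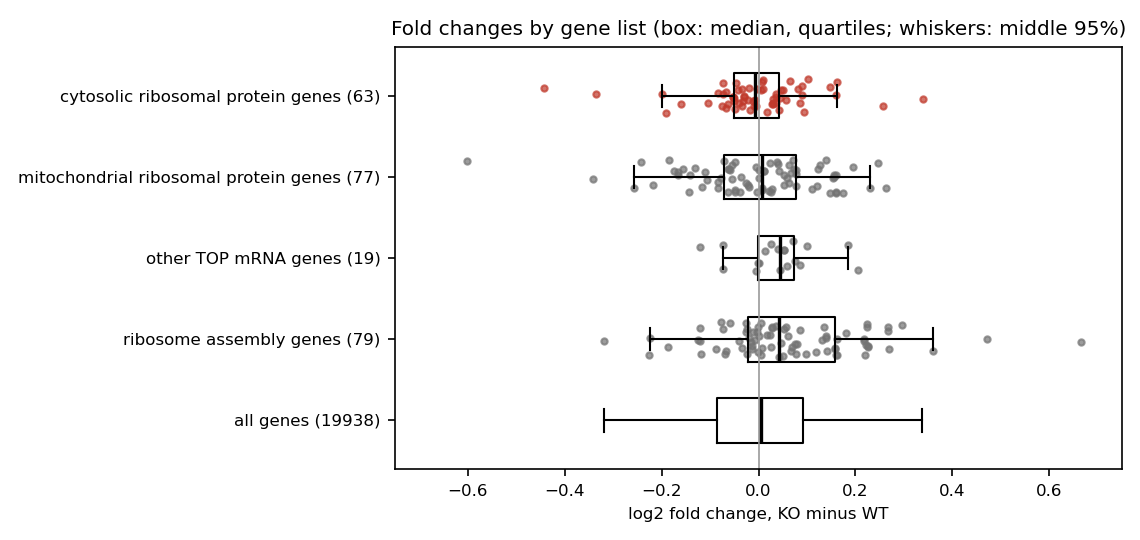
Log2 fold change (x axis, Lkb1KOlivad minus control) of the cytosolic ribosomal protein genes (red) and, below them, of 3 related lists and all 19938 genes, with boxes for the median and quartiles and whiskers for the middle 95% of genes. All medians lie between -0.0070 and 0.0446.

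Of 27 genes that regulate mTORC1 or the translation and transcription of ribosomal protein genes, 0 passed the adjusted threshold, while 1 was higher and 1 lower at the unadjusted one (7.41%, all genes 3.03%). The lower one was *Myc*, with 7.43, 6.84 and 6.87 in Lkb1KOlivad livers and 8.62, 8.18 and 8.36 in control livers, where the groups did not overlap (log2 fold change -1.34, SE 0.19, limma adjusted p = 0.352, exact p = 0.10). The higher one was *Tia1*, which in human cells binds TOP mRNAs under starvation, with 5.47, 5.51 and 5.73 in Lkb1KOlivad livers and 5.18, 5.26 and 4.74 in control livers (0.51, SE 0.16, adjusted p = 0.9997). *Larp1*, which holds TOP mRNAs back when mTORC1 is off, had a log2 fold change of -0.0012 (SE 0.13), and *Mtor*, the kinase of mTORC1, had -0.01 (SE 0.12).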

How the data were processed

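Liver RNA of 3 Lkb1KOlivad and 3 control mice was measured on Affymetrix mouse gene arrays, 1 array per mouse. The authors deposited log2 RMA signals (background correction, normalization between arrays and summary of probes into probe sets), which were used as deposited. The labels name RMA, Partek and NuGEN kits, the methods name Expression Console, BRB-ArrayTools and an Affymetrix labeling kit, with versions not given in the sources used here. Probe annotation belongs to the array generation before the one that the methods name. Of 35556 probe sets, 21789 with 1 symbol were kept, 1621 with several and 12146 with none were not, and the brightest of a gene's sets by mean over the 6 arrays represented it. No intensity filter was applied. Precision is limited by the number of arrays.

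Groups were compared with limma 3.58.1 (lmFit, then eBayes, without covariates, two-sided) in R 4.3.3 over all 19938 genes with Benjamini-Hochberg adjustment at 0.05, and single genes also with the exact permutation test (scipy 1.17.1). The procedure was tested on simulated data. Promoter sequences are from RefSeq (GRCm38.p6, 250 bases before to 50 after a start), and figures were drawn with matplotlib 3.10.9. Genes named are the 8 largest rises and 8 largest falls, those with an unadjusted p under 0.05, the stalk genes and fixed names, paralogs, the 5 brightest and 5 dimmest, and the 2 of smallest p in each comparison list. The members and lists were chosen with earlier results of these data known. The alternatives were array weights, averaging the probe sets of a gene, dropping dim genes, quantile normalization, median centring of arrays, robust estimation with an intensity trend, a block for the mouse number series, a fold threshold of 1.2, the t-test that the methods name for the paper in general, and leaving out each mouse. Admitting probe sets with several symbols was added after the data were seen.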

Additional observations from a re-analysis of the deposited data

How the results depend on the processing

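Under every alternative run, 0 ribosomal protein genes passed the adjusted threshold, and the family's median log2 fold change stayed between -0.05 and 0.04. The count lower at an unadjusted p under 0.05, 1 with all mice, was 0 in the methods' t-test, 2 with a block for the mouse number series (*Rps3a1* and *Rpl30*, together 3.17% of the 63, where 5.02% of all genes passed in either direction), 0 with probe sets of several symbols admitted and 0 to 1 when 1 mouse was left out. The count higher, 0 with all mice, was 0 to 2 when 1 mouse was left out. The 2 were *Rpl34* and *Rps27l*, without control B302. With *Rps3a1*, 4.76% of the 63 passed there in either direction, against 3.74% of all genes. Genes with all Lkb1KOlivad values below all control values, 1 with all mice, numbered 2 after quantile normalization (3.17%, all genes 4.74%), 0 without dim genes and 1 to 4 when 1 mouse was left out. The 4 came without mutant B305 (6.35%, all genes 7.30%). Genes with all values above, 0 with all mice, numbered 0 to 7 when 1 mouse was left out. The 7 came without mutant B253 (11.1%, all genes 9.17%) and, with other genes, without control B302 (11.1%, all genes 9.51%). With 3 arrays a group, the adjusted threshold also left larger differences uncalled, such as -0.44 for *Rps3a1* and -1.34 for *Myc*. No paired analysis was possible because the replicate numbers were given in accession order and pair no mice.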

Other observations

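Probe sets that the annotation gives several names were kept out of the comparison. Of 239 such sets that hold a symbol under the rule, 234 hold exactly 1. Admitting these added 15 genes, whose log2 fold changes (Lkb1KOlivad minus control) had a median of 0.0043 and ran from -0.07 to 0.40, with 0 at an unadjusted p under 0.05 in limma and 0 called. For 14 of the 18 genes with both kinds of probe set, the brightest set was one with several names.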
